A study of Mus musculus with 6 samples.

Results

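Npy, Sst, Cck, Vip, Penk, Pdyn, Tac1, Tac2, Crh and Adcyap1 encode the precursors of the main neuropeptides of the hippocampus. They were taken by gene symbol from a deposited table of counts per gene, and the rule sets no threshold on their values. All 10 were among the 20620 genes of the table, and all 10 were among the 20604 that entered the test. The question was how their transcripts differ in adult hippocampus when a mutant BRAF kinase is expressed in excitatory neurons. BRAF relays signals from RAS to MEK and ERK, and the Q241R mutant is used to model cardio-facio-cutaneous syndrome.

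The hippocampus of 6 male mice (strain background C57BL/6J) was profiled by RNA-seq, with 1 library for each mouse. The 3 control mice had the genotype Braf Q241R Neo/+, a mutant allele that still carries a Neo cassette, and were 32, 32 and 31 weeks old. The 3 n-Braf mice had the genotype Braf Q241R/+ with CaMKII-Cre and were 33, 32 and 34 weeks old. All 6 therefore carry the Q241R allele, and no wild-type mouse was analysed here. The groups differ in Cre and in the Neo cassette together, so effects of these cannot be told apart from those of the mutant protein. Libraries held from 25227112 to 31832245 assigned counts.

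Neuropeptides are cut from longer precursors inside dense-core vesicles and act on G protein-coupled receptors, often at a distance from the synapse. In the hippocampus Sst, Npy and Vip transcripts lie mostly in GABAergic interneurons. Cck is expressed in a class of basket cells and at lower levels in pyramidal cells. Pdyn and Penk are opioid precursors of granule cells and their mossy fibres, and Penk also occurs in interneurons. The CaMKII promoter is active mainly in excitatory neurons, whereas Npy, Sst and Vip are mainly transcripts of inhibitory ones.

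Braf, the targeted gene, was at 191 ± 12.1 CPM (counts scaled to a common library total, with TMM, trimmed mean of M values, factors) in n-Braf libraries, against 119 ± 4.18 CPM in controls (SD, n = 3 each), with an adjusted p of 0.0533 by edgeR. Camk2a, whose promoter drives Cre, had a log2 fold change of 0.16 (SE 0.11). Control libraries 1 and 2 stood apart in markers of the choroid plexus, the secretory epithelium of the ventricles. Of 15 such markers 12 were tested, and their summed level was 3578, 2019 and 140 CPM in controls 1 to 3 and 90.9 to 110 CPM in n-Braf. Values without controls 1 and 2 are given below where the direction turns or the value moves by over 1.5 times.

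Several of these genes are classical targets of cAMP and calcium signalling, whose factor CREB binds the cAMP response element TGACGTCA near the start of transcription. RefSeq promoters on GRCm38.p6, running from 250 bases before to 50 bases after each start, were at hand for 8 of the 10 genes, with 10 windows in all. The stretches below run from 100 bases before to 20 bases after the start. They show both genes with an element close to the start, Sst and Cck, and the pair with the lowest p of each sign, Npy and Pdyn (the more upstream of its 2 starts). Capitals mark the element or its variant TGCGTCA.

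Sst, chr16:23890825-23890944, minus strand: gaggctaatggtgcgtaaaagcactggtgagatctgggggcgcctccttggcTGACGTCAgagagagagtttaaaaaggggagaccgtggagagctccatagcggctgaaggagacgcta
Cck, chr9:121495675-121495794, minus strand: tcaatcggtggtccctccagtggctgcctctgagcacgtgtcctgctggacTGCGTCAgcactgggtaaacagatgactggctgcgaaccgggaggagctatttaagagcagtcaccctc
Npy, chr6:49822610-49822729, plus strand: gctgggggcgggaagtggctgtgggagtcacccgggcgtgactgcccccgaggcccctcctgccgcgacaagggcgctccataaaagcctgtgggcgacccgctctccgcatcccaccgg
Pdyn, chr2:129699919-129700038, minus strand: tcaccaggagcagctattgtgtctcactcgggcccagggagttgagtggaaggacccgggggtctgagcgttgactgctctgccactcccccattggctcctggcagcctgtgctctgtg

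The element TGACGTCA, which reads the same on both strands, occurred in 1 of the 10 windows, in Sst from 48 to 41 bases before the start. It is held by 1.79% of all 32851 promoter windows. The variant TGCGTCA, searched on both strands, occurred in Cck from 49 to 43 bases before the start and in Tac1 from 199 to 193 bases before, against 2.12% of all windows. The half-site TGACG is part of the full element and, on the other strand, of the variant. It was in 6 windows of 5 genes (Sst, Cck, Tac1, Vip and Adcyap1) and in 20.8% of all windows. The windows of Adcyap1 overlap, and the same site is counted in both. The AP-1 site TGACTCA, which Fos and Jun proteins bind, was in 0 of the 10 windows and in 5.20% of all. These are letter matches in short windows and say nothing of binding.

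Levels of different genes are compared here as CPM per kilobase of exon, with exon lengths from the GENCODE M21 annotation. Sst was the highest, at 120 ± 11.5 (controls) and 132 ± 14.8 (n-Braf; SD, n = 3 each). Cck followed at 69.2 ± 2.80 and 79.2 ± 8.23, then Npy at 18.4 ± 3.52 and 27.5 ± 4.93, and Penk at 8.36 ± 0.231 and 8.66 ± 2.03. These 4 kept this order in 6 of 6 libraries, and the ranges of neighbours did not overlap. The other 6 lay between 0.557 (Tac2) and 1.63 (Vip) as means over all libraries, in the order Vip, Pdyn, Adcyap1, Crh, Tac1 and Tac2. Each of these overlapped its neighbour in range, and Vip exceeded Pdyn in 3 of 6 libraries. Sst and Cck together made up most of the summed level, at 53.0% and 31.1%.

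edgeR's quasi-likelihood test placed 0 of the 10 precursors past an adjusted p of 0.05, where 0 of 20604 genes (0%) passed. At an unadjusted p of 0.05 there were 3 of 10, Npy and Cck with higher means in n-Braf and Pdyn with a lower one. Over all genes 6.82% had such a p. The number of precursors with such a p depended on the fit. It was 0 with a covariate for choroid plexus, where 543 of all genes had such a p, against 1405 in the main fit. It was 1 without control 2, without n-Braf 1 or with a covariate for neocortex, and 4 without n-Braf 3. DESeq2, run on the same counts, called 0 of the 10 and 78 of all genes. Of the 10 log2 fold changes 8 were above 0 and 2 below, with a median of 0.15 against -0.0042 over all genes tested. Npy alone had every n-Braf library above every control, as 6.09% of all genes did. No precursor had every n-Braf library below every control, as 5.44% of all genes did.

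**Figure D1:**
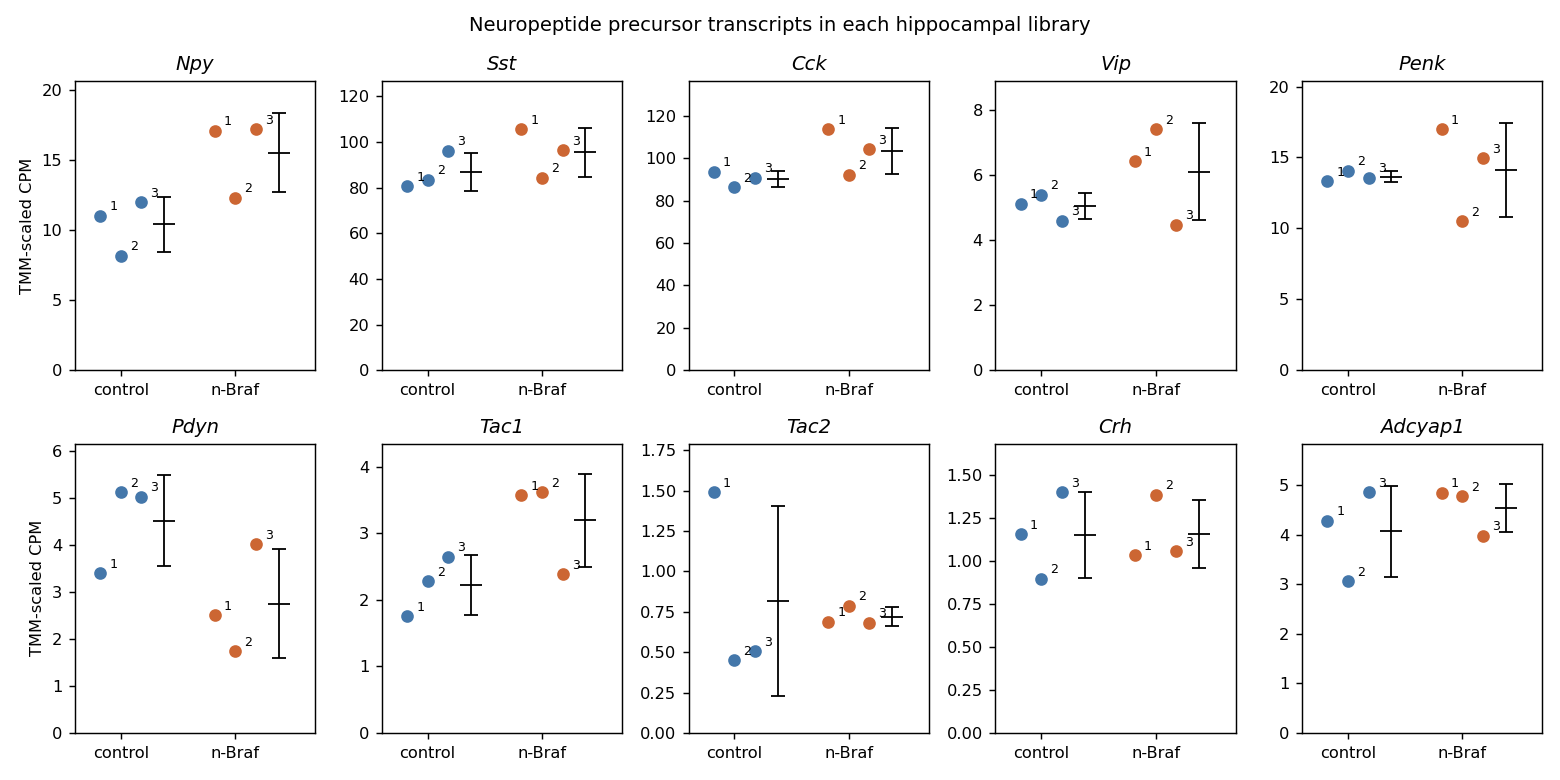
Level of each precursor in each library in TMM-scaled CPM (y axis, from 0, with its own scale in each panel), by group (x axis). Points are libraries with their replicate number and black bars are the mean and SD of 3 libraries. Npy is the gene without overlap between the groups, with its highest control at 12.0 CPM and its lowest n-Braf library at 12.3 CPM.

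Npy encodes neuropeptide Y, an inhibitory peptide of interneurons that dampens glutamate release. The gene (ENSMUSG00000029819) lies on chromosome 6 at 49822710 to 49829507, plus strand. Controls 1 to 3 had 11.0, 8.19 and 12.0 CPM and n-Braf 1 to 3 had 17.1, 12.3 and 17.2 CPM. Libraries n-Braf 1 and 3 stood well above all controls, while n-Braf 2 was close to control 3. The n-Braf mean of 15.6 ± 2.79 CPM was 1.49-fold the control mean of 10.4 ± 1.99 CPM (SD, n = 3 each), with a 95% interval of 1.13 to 1.97 for the fold. On the log2 scale this was 0.58 (SE 0.18, unadjusted p = 0.00925, adjusted p = 0.571). When controls 1 and 2 were both left out, it was 0.37. With age as a covariate it was 0.44, with an unadjusted p of 0.136 by edgeR. The authors' deposited table gives Npy a log2 fold change of 0.58 with a p-value of 0.00401 and an adjusted p-value of 0.373.

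Sst encodes somatostatin, which marks interneurons that contact pyramidal cell dendrites. The gene (ENSMUSG00000004366) lies on chromosome 16 at 23889573 to 23890958, minus strand. It was at 80.6, 83.5 and 96.2 CPM in the controls and at 106, 84.2 and 96.4 CPM in n-Braf, so the groups overlapped. Sst had a log2 difference of 0.14 (SE 0.10, adjusted p = 0.859), with a 95% interval of -0.083 to 0.36. It was 0.056 without n-Braf 1, 0.22 without n-Braf 2 and -0.012 without controls 1 and 2.

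Vip encodes vasoactive intestinal peptide, found in interneurons that inhibit other interneurons. The gene (ENSMUSG00000019772) lies on chromosome 10 at 5639218 to 5647617, plus strand. It was at 5.11, 5.38 and 4.59 CPM in the controls and at 6.42, 7.40 and 4.46 CPM in n-Braf. The last of these libraries, n-Braf 3, was the lowest of all 6, while n-Braf 1 and 2 were the highest. For Vip the log2 difference was 0.28 (SE 0.20, adjusted p = 0.860), and it was 0.11 without n-Braf 2 and 0.45 without n-Braf 3.

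Cck encodes cholecystokinin and lies on chromosome 9 at 121489824 to 121495694, minus strand (ENSMUSG00000032532). Controls had 93.6, 86.4 and 90.7 CPM and n-Braf libraries 114, 92.2 and 104 CPM. Only n-Braf 2 lay within the control range. The difference was 1.15-fold, with a 95% interval of 1.01 to 1.30, a log2 fold change of 0.20 (SE 0.08, unadjusted p = 0.0408) and an adjusted p of 0.730. Without n-Braf 1 it was 0.12. With age as a covariate it was 0.11, with an unadjusted p of 0.373 by edgeR.

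Pdyn encodes prodynorphin, the precursor of dynorphins, which act on kappa opioid receptors at mossy fibre terminals. The gene (ENSMUSG00000027400) lies on chromosome 2 at 129686565 to 129699844, minus strand. It was at 3.39, 5.12 and 5.02 CPM in the controls and at 2.50, 1.73 and 4.02 CPM in n-Braf, from 55 to 137 counts a library. Libraries n-Braf 1 and 2 were below every control, but n-Braf 3 was above control 1. Control libraries averaged 4.51 ± 0.971 CPM and n-Braf libraries 2.75 ± 1.16 CPM (SD, n = 3 each). The log2 fold change was -0.72 (SE 0.31, unadjusted p = 0.0439, adjusted p = 0.730), with a 95% interval of -1.41 to -0.024. It was -0.47 without n-Braf 2, -1.09 without n-Braf 3 and -1.31 with age as a covariate.

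Markers of dentate granule cells, the main cells that express Pdyn, had the same order over libraries as Pdyn within n-Braf but not within the controls. In mean log2 deviation from the average over all libraries, the 10 granule cell markers were at -0.24, -0.38 and 0.38 in n-Braf 1 to 3, and Pdyn was at -0.43, -0.94 and 0.24. In controls 1 to 3 the markers were at 0.046, 0.21 and -0.016 and Pdyn at -0.0011, 0.58 and 0.55. Library n-Braf 3, the highest of all 6 in these markers, had less Pdyn than controls 2 and 3. Their summed level was 445 to 521 CPM in the controls and 388 to 623 CPM in n-Braf. The part of granule cell content in the Pdyn difference was not tested. In bulk tissue fewer cells of a type and less RNA per cell cannot be told apart. Of the 10 markers 3 were above 0 and 7 below 0 in log2 fold change (median -0.15), and 0 passed. That median was 0.023 without n-Braf 2, -0.42 without n-Braf 3, 0.0021 without controls 1 and 2 and -0.63 with age as a covariate. Plk5, a granule cell marker, averaged 7.97 ± 0.476 CPM (controls) and 5.77 ± 1.39 CPM (n-Braf), and Calb1, the calcium buffer calbindin, 47.9 ± 4.95 and 57.6 ± 6.32 CPM (SD, n = 3 each).

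Penk encodes proenkephalin, the source of the enkephalins. The gene (ENSMUSG00000045573) lies on chromosome 4 at 4133531 to 4138819, minus strand. Controls were close together at 13.3, 14.1 and 13.6 CPM, while n-Braf libraries ran from 10.5 CPM (n-Braf 2) through 14.9 CPM to 17.0 CPM (n-Braf 1). Penk had a log2 difference of 0.051 (SE 0.16, adjusted p = 0.986), with a 95% interval of -0.32 to 0.42. It was -0.10 without n-Braf 1 and 0.23 without n-Braf 2.

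Tac1 encodes the precursor of substance P and neurokinin A. The gene (ENSMUSG00000061762) lies on chromosome 6 at 7554879 to 7565834, plus strand. It was at 1.75, 2.28 and 2.65 CPM in the controls and at 3.57, 3.62 and 2.38 CPM in n-Braf. Library n-Braf 3 lay within the control range and the other n-Braf libraries were above it. For Tac1 the log2 difference was 0.52 (SE 0.25, unadjusted p = 0.0627, adjusted p = 0.763), with a 95% interval of -0.034 to 1.07. It was 0.27 without controls 1 and 2 together and 0.94 with age as a covariate.

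Tac2 encodes neurokinin B and was the least abundant of the 10. The gene (ENSMUSG00000025400) lies on chromosome 10 at 127724478 to 127731768, plus strand. It had 40, 12 and 13 counts in the controls and 22, 25 and 20 in n-Braf, or 1.49, 0.449 and 0.506 CPM and 0.688, 0.787 and 0.681 CPM. Control 1 was the highest library and the other controls the lowest. The log2 fold change was -0.18 (SE 0.47, adjusted p = 0.981) and turned to 0.59 without control 1 and 0.50 without controls 1 and 2. Control 1 also had the highest mean log2 deviation over the 7 thalamic markers, at 0.39, though not in each of them. It was highest in the choroid plexus markers too, at 3.48, with control 2 at 2.60. The 3 tested medial habenula markers were at -0.096 in control 1. The part of these tissues in the Tac2 level was not tested.

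Crh encodes corticotropin-releasing hormone, a stress peptide of interneurons. The gene (ENSMUSG00000049796) lies on chromosome 3 at 19693401 to 19695396, minus strand. It had 31, 24 and 36 counts in the controls and 33, 44 and 31 in n-Braf, or 1.16, 0.897 and 1.40 CPM and 1.03, 1.38 and 1.06 CPM. The ranges of the groups were nearly the same. Crh had a log2 difference of 0.0093 (SE 0.29, adjusted p = 0.998), with a wide 95% interval of -0.63 to 0.65 at these counts. It was -0.27 without controls 1 and 2.

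Adcyap1 encodes PACAP, a peptide of the same family as VIP that stimulates cAMP production. The gene (ENSMUSG00000024256) lies on chromosome 17 at 93199017 to 93206537, plus strand. It was at 4.29, 3.07 and 4.87 CPM in the controls and at 4.85, 4.78 and 3.98 CPM in n-Braf. Control 2 was the lowest library and control 3 the highest. For Adcyap1 the log2 difference was 0.16 (SE 0.20, adjusted p = 0.948) and was -0.011 without control 2 and -0.099 without controls 1 and 2.

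**Figure D2:**
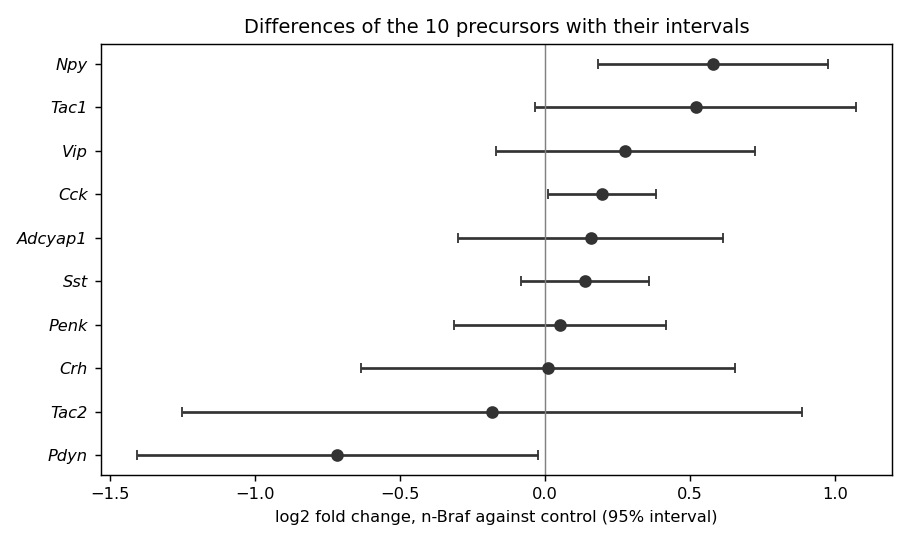
Log2 fold change of each precursor, n-Braf against control (x axis), with its 95% interval from edgeR's quasi-likelihood fit (bars) and genes in order of the change (y axis). The intervals of Npy and Cck lie above 0 and that of Pdyn below it, and the other 7 include 0.

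Ratios of 2 transcripts within a library do not depend on how libraries are scaled. They were formed for 5 pairs, chosen after the single values were seen. The adjustment over these pairs does not account for that choice. Npy relative to Sst was 0.137, 0.0981 and 0.125 in the controls and 0.162, 0.146 and 0.179 in n-Braf. All n-Braf libraries were above all controls, by 1.36-fold on average (two-sided exact permutation p = 0.10, the smallest that 3 against 3 allows, and 0.25 adjusted over the 5 pairs). Npy relative to Gad1, which encodes a GABA-synthesising enzyme, was 0.0694, 0.0485 and 0.0636 in the controls and 0.0969, 0.0654 and 0.0936 in n-Braf. Here n-Braf 2 lay below control 1 (exact permutation p = 0.20, adjusted 0.25).

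Pdyn relative to Prox1, a transcription factor of granule cells, was 0.0325, 0.0417 and 0.0525 in the controls and 0.0314, 0.0188 and 0.0272 in n-Braf. All n-Braf libraries were below all controls, and the control mean was 1.64-fold higher (exact permutation p = 0.10, adjusted 0.25). Prox1 is 1 of the 10 granule cell markers, with a log2 fold change of -0.017 (SE 0.20) against the list's median of -0.15. The other markers of that list were not used as partners, and the separation may depend on the partner. Relative to Penk, Pdyn was 0.255 to 0.370 in the controls and 0.147 to 0.269 in n-Braf, with n-Braf 3 above control 1 (exact permutation p = 0.20, adjusted 0.25). Cck relative to Gad1 was 0.479 to 0.588 and 0.489 to 0.643 and overlapped (exact permutation p = 0.60, adjusted 0.60). Its log2 difference was 0.10, and it was 0.0048 without n-Braf 1 and 0.23 without controls 1 and 2.

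Markers of GABAergic interneurons, the cells that hold most Npy, Sst and Vip, were split evenly. Of 30 listed genes 29 were tested, with 14 above 0 and 15 below 0 in log2 fold change, a median of -0.0084 and 0 called. The median was between -0.053 and 0.032 when 1 library was left out and -0.051 without controls 1 and 2. Their summed level was 1322 to 1466 CPM in the controls and 1294 to 1515 CPM in n-Braf. The lowest unadjusted p-values belonged to Nos1, a nitric oxide synthase (log2 fold change -0.26, SE 0.13), and Sp9, a transcription factor (-0.38, SE 0.19). With the mean of Gad1, Gad2 and Slc32a1 as a covariate Npy had a log2 fold change of 0.57 and Pdyn of -0.79.

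Markers of neighbouring tissue varied between libraries and are given beside the peptides they may carry. The 11 neocortical markers had mean log2 deviations of -0.085, -0.34 and 0.15 in the controls and 0.34, 0.24 and -0.31 in n-Braf. Tac1 and Vip were likewise higher in n-Braf 1 and 2 than in n-Braf 3. So were the mean deviations of the interneuron, striatal, habenular, thalamic and hilar mossy cell markers, so this order is not particular to neocortex. The interneuron markers were at -0.0089, 0.079 and -0.16 in n-Braf 1 to 3. Granule cell markers were highest in n-Braf 3. In the controls Vip ran opposite to the neocortical markers, lowest in control 3 and highest in control 2. Tac1 was highest in control 3 but lowest in control 1. With the neocortical mean as a covariate the log2 fold change was 0.36 for Tac1 and 0.16 for Vip, and 0.56 for Npy. The 11 tested striatal markers, from a region rich in Penk and Tac1, summed to 240 to 259 CPM in the controls and 229 to 270 CPM in n-Braf. A sum is weighted to the most abundant markers, while each counts alike in the mean log2 deviation. That was 0.19, -0.32 and 0.086 in the controls and 0.22, 0.14 and -0.33 in n-Braf. The 3 tested markers of the medial habenula, another Tac1 site, summed to 39.6 to 44.0 CPM and 42.6 to 63.3 CPM. Their mean log2 deviations were -0.096, -0.0032 and -0.38 in the controls and 0.13, 0.35 and -0.0085 in n-Braf. The 5 markers of hilar mossy cells summed to 68.3 to 81.0 CPM in the controls and 72.0 to 80.1 CPM in n-Braf. The part of neocortex, striatum and habenula in these values was not tested further.

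**Figure D3:**
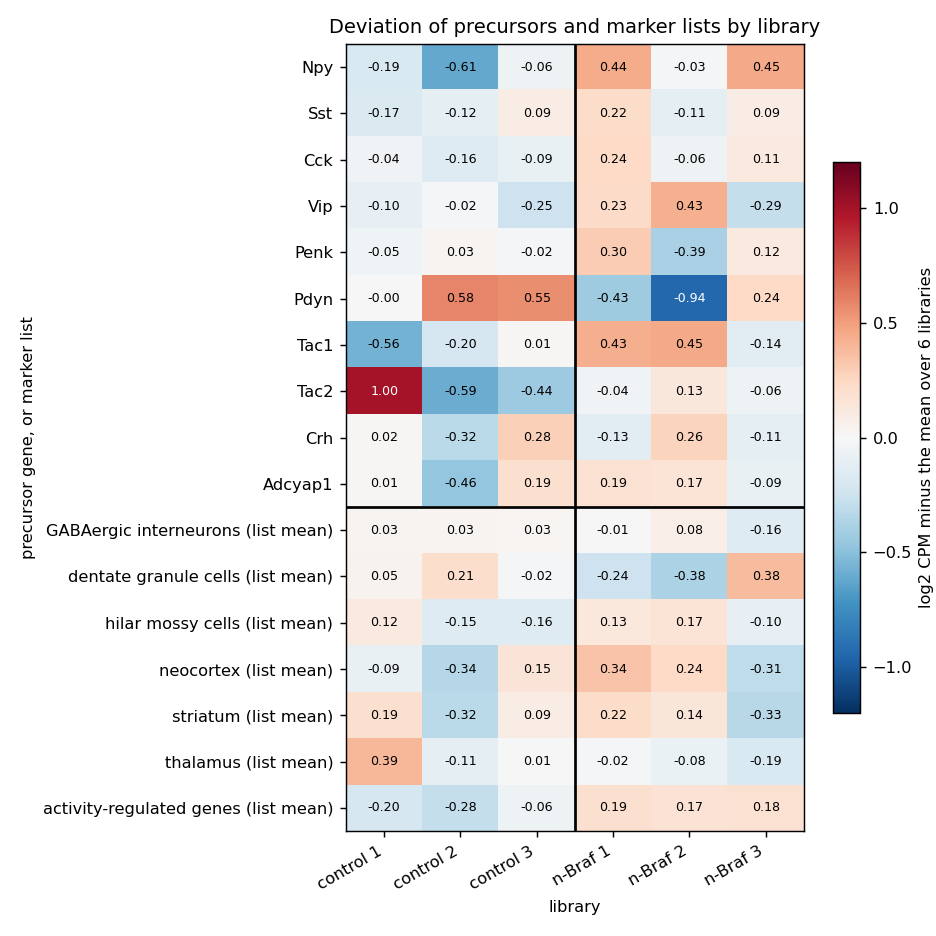
Log2 CPM minus its mean over all 6 libraries for each precursor (upper rows) and the mean of the same over marker lists (lower rows), by library (columns). Red is above and blue below the mean, and each cell prints its value. The interneuron list stays between -0.16 and 0.079, while Pdyn and the granule cell list are both lowest in n-Braf 2 and, within n-Braf, highest in n-Braf 3.

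Receptors of these peptides were tested for 18 of 22 listed genes, with 11 above 0, 7 below 0, a median log2 fold change of 0.067 and 0 called. The median turned to -0.058 without n-Braf 1 and -0.035 without control 1, and was 0.0061 without n-Braf 2 and 0.0016 without controls 1 and 2. Vipr1, a receptor for VIP and PACAP, averaged 18.2 ± 2.26 CPM (controls) and 24.4 ± 3.90 CPM (n-Braf), and Sstr3, a somatostatin receptor of neuronal cilia, 19.6 ± 2.26 and 24.0 ± 0.924 CPM (SD, n = 3 each). In both, 2 of the 18 receptors, all n-Braf libraries were above all controls, as in 6.09% of all genes. The adjusted p-values of edgeR were 0.612 and 0.653. Sstr2 had a log2 fold change of 0.29 (SE 0.17). Crhr2, a CRH receptor, was at 3.47, 1.83 and 0.623 CPM in the controls, in the order of the choroid plexus markers, and at 0.850 to 1.47 CPM in n-Braf.

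Enzymes that cut and modify precursors had 4 of 11 above 0, a median of -0.0065 and 0 called. The median was 0.0077 without control 2, 0.010 without control 3, -0.044 without n-Braf 1 and -0.034 without controls 1 and 2. Pam, which adds the C-terminal amide that many of these peptides carry, averaged 172 ± 13.2 CPM (controls) and 200.3 ± 2.66 CPM (n-Braf; SD, n = 3 each), a log2 difference of 0.22 (SE 0.07, adjusted p = 0.594). Its lowest n-Braf library (198 CPM) was above its highest control (183 CPM). Cpe, the carboxypeptidase that trims cut peptides, had a log2 fold change of 0.13 (SE 0.06), Qpct, which closes N-terminal glutamine into a ring, of -0.29 (SE 0.14), and the convertase Furin of -0.13 (SE 0.12). In Pam and Cpe every n-Braf library was above every control, as in 6.09% of all genes. In Qpct every n-Braf library was below every control, as in 5.44% of all genes.

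Genes of peptide binding and breakdown had 9 of 12 above 0, a median of 0.056 and 0 called by edgeR. The median was -0.036 without control 2, 0.034 without n-Braf 1 and 0.090 without control 1, and Ace passed without control 3. Crhbp, which encodes a protein that binds and sequesters CRH and is found in somatostatin interneurons, was at 9.32, 7.89 and 9.27 CPM in the controls and at 11.5, 11.7 and 12.0 CPM in n-Braf. All n-Braf libraries exceeded all controls, as in 6.09% of all genes, by 0.41 in log2 (SE 0.11, adjusted p = 0.543). Crhbp was the only 1 of the 12 without overlap. Ace, the angiotensin-converting enzyme, was at 89.6, 53.4 and 13.4 CPM in controls 1 to 3, the order of the choroid plexus markers, and at 9.02 to 17.5 CPM in n-Braf. The peptidases Lnpep and Ece2 differed by 0.069 (SE 0.07) and -0.13 (SE 0.13) in log2.

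Other neuropeptide precursors, outside the 10, were tested for 14 of 35 listed genes, with 9 above 0, 5 below 0, a median of 0.21 and 0 called. The median was 0.084 without n-Braf 2, 0.41 without control 1, 0.32 without n-Braf 3 and 0.33 without controls 1 and 2. At an unadjusted p of 0.05 there were 5 with higher and 1 with lower means in n-Braf, where 6.82% of all genes had such a p in either direction. Cort encodes cortistatin, a relative of somatostatin in interneurons, and was at 1.49, 2.06 and 1.60 CPM in the controls and at 2.44, 3.43 and 3.27 CPM in n-Braf (log2 fold change 0.83, SE 0.23, adjusted p = 0.543). Pnoc, the precursor of the opioid-like peptide nociceptin, was at 1.79, 1.79 and 2.65 CPM and at 2.91, 3.21 and 3.95 CPM (0.69, SE 0.23, adjusted p = 0.635). Grp, gastrin-releasing peptide, was at 4.66, 6.21 and 4.52 CPM and at 7.10, 9.03 and 7.15 CPM (0.60, SE 0.17, adjusted p = 0.554). In Cort, Pnoc and Grp every n-Braf library was above every control, as in 6.09% of all genes. Nts, neurotensin, overlapped, at 2.72 to 4.13 CPM and 3.88 to 5.89 CPM (0.62, SE 0.23). Pomc, the precursor of beta-endorphin, is also among the 5 with higher means at that p. It was at 3.68 CPM in n-Braf 2 and at 0.598 to 0.919 CPM in the other libraries. In Cartpt, which encodes the CART peptide, and Nmb, neuromedin B, every n-Braf library was below every control, as in 5.44% of all genes. Cartpt averaged 1.01 ± 0.155 CPM (controls) and 0.591 ± 0.0964 CPM (n-Braf; SD, n = 3 each; log2 difference -0.77, SE 0.31, adjusted p = 0.713). Nmb was low, at 0.556 ± 0.0578 CPM (controls) and 0.451 ± 0.0161 CPM (n-Braf; SD, n = 3 each), with a log2 difference of -0.30 (SE 0.34). Pomc, Cartpt and Nmb were named after their values were seen.

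Activity-regulated genes, a list that includes the secreted peptide precursors Vgf and Scg2, were all above 0 in log2 fold change (16 of 16, median 0.34). The list was chosen with earlier results of these data known, so its counts are no independent test. edgeR called 0 of them and DESeq2 called 2, Vgf and Egr3. In 8 of the 16 every n-Braf library was above every control, as in 6.09% of all genes. The list's mean log2 deviation was -0.20, -0.28 and -0.064 in the controls and 0.19, 0.17 and 0.18 in n-Braf. Vgf, a neurotrophin-induced precursor, differed by 0.85 in log2 (SE 0.11, adjusted p = 0.135) and Nptx2, a secreted pentraxin, by 0.60 (SE 0.13). Egr3 and Egr1, transcription factors induced by activity, were at 0.36 (SE 0.07) and 0.47 (SE 0.14). The list's median was 0.32 with library size alone as the scaling and 0.23 without controls 1 and 2. With the choroid plexus mean as a covariate it was 0.19, and without control 3 it was 0.41.

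The genes most like a precursor across the 6 libraries were sought among 13491 named genes with a mean CPM of at least 1, by the root mean square difference in log2 deviation. For Npy, whose own deviations have a root mean square of 0.37, they were Mlph (0.13), Cenpw (0.13) and Atxn7l1os2 (0.15). For Pdyn, at 0.54, they were Il20rb (0.10), Tdo2 (0.17) and Wdr49 (0.20). Tdo2 is on the list of 10 granule cell markers, of which 3 were above 0 and 7 below 0 in log2 fold change. For Cck, at 0.13, they were Timm8b (0.027), mt-Nd5 (0.030) and Ncald (0.035). These are the closest of 13491 genes over only 6 values, and how close such matches come by chance was not tested.

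**Figure D4:**
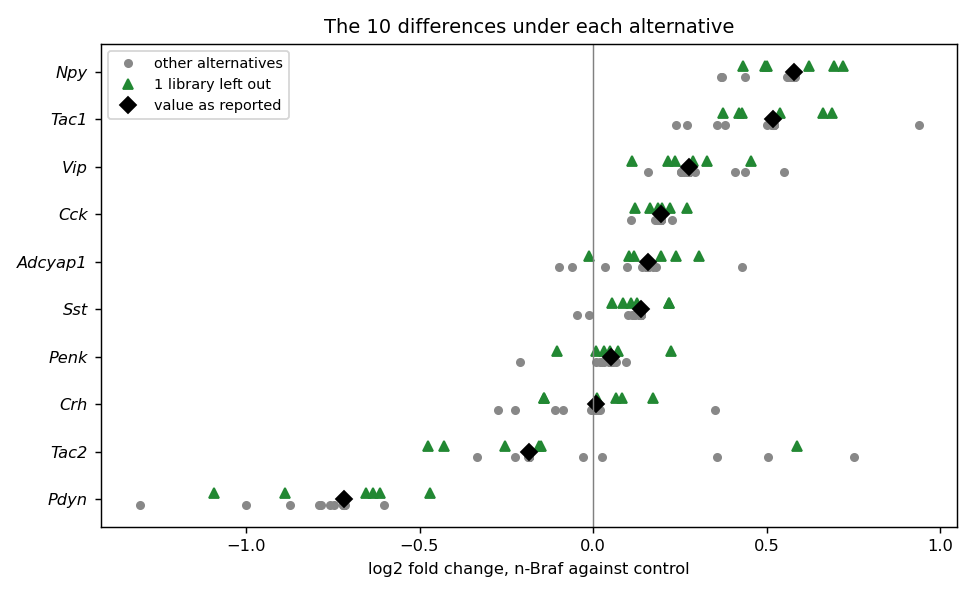
Log2 fold change, n-Braf against control (x axis), of each precursor (y axis) under each way of processing the counts. Black diamonds are the reported values, green triangles leave out 1 library and grey points are the other alternatives. Npy, Tac1, Vip and Cck stay above 0 and Pdyn below 0, and the other 5 lie on both sides of 0.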

How the data were processed

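Per the submitters' processing notes, reads were handled with bcl2fastq 2.20, fastp 0.20.1, STAR, RSEM and edgeR 3.36.0 on mm10. STAR and RSEM versions, annotation and strand setting are not given in the sources used here. Expected counts for each gene are the main values deposited, and all 60 values of the 10 precursors were whole numbers. The table also gives the authors' log2 fold change, mean log2 CPM, p-value and adjusted p-value. RNA (10.0 ng a library) went into a stranded SMART-Seq kit, per the labels.

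Counts were rounded, filtered with filterByExpr (minimum count 10), scaled by TMM and tested with edgeR 4.0.16 (quasi-likelihood, R 4.3.3), with group as the only term and Benjamini-Hochberg adjustment over 20604 genes. SE is the log2 fold change divided by the root of the test's F, and intervals use its degrees of freedom. The prior count for log2 CPM was 2. The test was tried on simulated data. Alternatives were other scalings and filters, DESeq2 1.42.0, limma-voom (limma 3.58.1), a replicate block, covariates and leaving out libraries. Members, lists and alternatives were chosen with earlier results of these data known. Named genes are the 10 members, Braf, Camk2a, up to 4 genes of lowest p in each list described, and 3 nearest genes for the 3 members of lowest p. Pomc, Cartpt and Nmb, the ratio partners Gad1 and Prox1, the covariate genes Gad2 and Slc32a1, and Scg2 are named outside this rule. Of the neighbouring tissue lists only summed levels or mean deviations are given. Nothing in the labels says more of the animals than 1 library each, and replicate numbers follow the order of deposit. RefSeq promoters and GENCODE M21 coordinates are on GRCm38, which mm10 names.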

Additional observations from a re-analysis of the deposited data

How the results depend on the processing

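Over 20 alternatives 0 of the 10 precursors were called, and 180 of 199 log2 fold changes kept their direction. Npy, Cck, Vip, Tac1 and Pdyn kept theirs in every alternative run, with Npy between 0.37 and 0.72 and Pdyn between -1.31 and -0.47. With the choroid plexus mean as a covariate the sign turned for Sst (-0.045), Tac2 (0.75), Crh (-0.23) and Adcyap1 (-0.060), and without controls 1 and 2 together, where the lone control is assumed to vary like n-Braf, for Sst (-0.012), Tac2 (0.50), Crh (-0.27) and Adcyap1 (-0.099). Crh also turned with library size alone (-0.0072), the neocortical mean (-0.086) or the GABAergic mean (-0.11) as a covariate, Tac2 with limma-voom (0.025) and the GABAergic mean (0.36), and Penk with age (-0.21). Leaving out 1 library gave ranges of -0.48 to 0.59 for Tac2, -0.14 to 0.17 for Crh, -0.011 to 0.30 for Adcyap1 and -0.10 to 0.23 for Penk. With age as a covariate Vip (0.55), Crh (0.35) and Adcyap1 (0.43) moved away from 0, while Npy (0.44) and Cck (0.11) moved towards it. The causes were not tested. Tac2 gave no value at a mean CPM of at least 1.

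Over all genes DESeq2 called 78 (29 higher, 49 lower), the neocortical covariate 3, the fit without mitochondrial genes and the 20 of highest abundance 1, leaving out controls 1 and 2 together 3, and leaving out 1 library 0 to 82, with the 82 without control 3. Of the activity-regulated genes DESeq2 called 2 (Vgf and Egr3), the neocortical covariate 1 (Vgf) and leaving out 1 library 0 to 2 (Vgf and Egr1 without control 3). Of the clearance genes leaving out 1 library called 0 to 1 (Ace without control 3).

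Replicate numbers follow the order of deposit and pair no mice. Same-numbered libraries did not deviate together (correlations across genes of 0.10, -0.046 and -0.014). With the replicate block 0 precursors and 0 genes were called, and the log2 fold change was 0.58 for Npy and -0.76 for Pdyn. Tac2 and Crh had only 12 to 44 counts a library, which limits their precision.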
